A study of Mus musculus with 12 samples.

Results

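Hair keratins and keratin-associated proteins are the structural proteins of the hair follicle, and their mRNA was measured in RNA-seq of whole back skin from mice. The members were taken by name as protein-coding genes that are hair keratins, inner root sheath keratins, the companion layer keratin Krt75 or numbered keratin-associated proteins, which gave 75 genes out of 52636 in the count table. Of these, 18 are keratins and 57 are keratin-associated proteins. The rule uses gene names and no measured value. Among the keratins it leaves out are Krt33a, Krt33b and Krt87, whose names carry a letter or a number outside the rule. Krt74 and Krtap19-9a match by name but are annotated as pseudogenes and are left out too.

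The study asked how mTORC1 signaling takes part in skin inflammation that resembles rosacea, and in this experiment compared skin from LL37-injected and control mice with or without rapamycin. All mice were BALB/c and, by the study's methods, 8 weeks old and shaved the day before injection. Control mice received control vehicle in the back skin and LL37 mice received LL37, the active peptide of human cathelicidin, both intradermally 2 times a day for 2 days. The control+RAPA and LL37+RAPA groups were also given rapamycin (RAPA), which inhibits the mTORC1 kinase, at 4 mg/kg per day in the mouse experiments of the study, while control and LL37 mice received its vehicle. Each of the 4 groups held 3 libraries, described by the study as independent biological samples. LL37 skin here is an acute injection model, and whole skin holds follicles together with epidermis, dermis, fat and muscle, so that fewer cells of a type and less RNA per cell cannot be told apart.

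A hair shaft is built by cells that leave the matrix at the base of a growing follicle and fill first with hair keratins and then with keratin-associated proteins, which cross-link the keratin filaments. Each keratin filament pairs a type I (acidic) with a type II (basic) keratin. The inner root sheath around the shaft has its own type I and type II keratins, and Krt75 marks the companion layer, which lies between inner and outer root sheath. Shaft and inner root sheath genes are transcribed mainly in growing follicles (anagen), whereas cells with Krt75 also stay around the club hair of resting follicles (telogen), and back skin of mice at this age is generally in telogen.

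The genes lie in a few clusters on the mouse genome build GRCm38 (mm10). The 5 type I hair keratins lie at chr11:100037347-100105626, between them and the 4 type I inner root sheath keratins at chr11:99315516-99374903 lie 11 high sulfur and 12 ultra high sulfur keratin-associated proteins. The 5 type II hair keratins lie at chr15:101459061-101550667, followed by Krt75 at chr15:101563345-101573904 and the 3 type II inner root sheath keratins at chr15:101733949-101802346. All 15 high glycine-tyrosine keratin-associated proteins lie at chr16:88868917-89487952. Classes were set from codons: over 30% cysteine codons for ultra high sulfur (21 genes, median 37.7%), over 35% glycine and tyrosine codons for high glycine-tyrosine among the rest (15 genes, median 63.3%), and high sulfur for the remaining 21 genes (median 20.1% cysteine codons).

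Promoter windows, 250 bases before to 50 bases after the transcription start in RefSeq on GRCm38.p6, were matched for 65 of the 75 members. The TATA box TATAAA, searched on both strands, was in the windows of 53 of these 65 members (81.5%), against 13.6% of all 32851 windows in the table. The letters CTTTGA, the core bound by LEF1 and related factors of Wnt signaling, were in 19 member windows (29.2%) against 16% of all windows, and the AP-1 motif TGANTCA in 10 (15.4%) against 7.81%. These shares are a description of related genes that duplicated within clusters, and a match does not show a site in use. The 5 windows printed here belong to members called in LL37 vs control, the 3 lower and the 3 higher ones with the smallest p in their direction, apart from Krt86, for which no window was matched. All are written 5′ to 3′ in the direction of the gene, all genes here are on the minus strand, and capitals mark the matches, none of which overlap.
Krt32 (chr11:100088220-100088519): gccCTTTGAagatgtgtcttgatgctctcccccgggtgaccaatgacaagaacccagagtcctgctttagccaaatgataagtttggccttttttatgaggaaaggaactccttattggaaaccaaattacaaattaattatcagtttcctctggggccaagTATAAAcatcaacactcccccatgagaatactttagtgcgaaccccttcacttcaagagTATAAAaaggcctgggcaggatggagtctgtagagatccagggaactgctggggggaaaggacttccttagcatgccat
Krt36 (chr11:100105577-100105876): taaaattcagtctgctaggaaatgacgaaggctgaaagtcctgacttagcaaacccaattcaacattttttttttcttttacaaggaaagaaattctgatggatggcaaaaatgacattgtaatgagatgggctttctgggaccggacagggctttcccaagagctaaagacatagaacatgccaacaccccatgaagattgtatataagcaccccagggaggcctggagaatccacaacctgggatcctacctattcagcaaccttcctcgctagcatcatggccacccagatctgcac
Krtap3-2 (chr11:99556804-99557103): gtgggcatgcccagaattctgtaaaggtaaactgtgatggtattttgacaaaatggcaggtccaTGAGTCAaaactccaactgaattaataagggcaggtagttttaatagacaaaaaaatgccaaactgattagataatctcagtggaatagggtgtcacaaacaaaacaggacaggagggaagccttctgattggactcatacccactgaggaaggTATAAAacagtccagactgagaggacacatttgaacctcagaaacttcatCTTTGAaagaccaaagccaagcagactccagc
Krt71 (chr15:101743048-101743347): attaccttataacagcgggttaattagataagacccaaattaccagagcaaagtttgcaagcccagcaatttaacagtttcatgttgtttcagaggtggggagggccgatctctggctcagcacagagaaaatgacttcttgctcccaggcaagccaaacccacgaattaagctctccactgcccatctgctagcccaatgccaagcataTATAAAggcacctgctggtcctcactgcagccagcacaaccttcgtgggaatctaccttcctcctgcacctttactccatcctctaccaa
Krt84 (chr15:101532771-101533070): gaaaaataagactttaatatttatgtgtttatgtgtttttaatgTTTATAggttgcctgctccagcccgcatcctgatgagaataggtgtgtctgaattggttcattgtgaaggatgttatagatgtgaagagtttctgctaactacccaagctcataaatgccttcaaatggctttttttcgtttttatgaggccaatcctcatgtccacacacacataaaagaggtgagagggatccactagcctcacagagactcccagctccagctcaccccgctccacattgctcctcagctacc
The window of Krt32 held TATAAA starting at base -29 and at base -88 from the start, and CTTTGA at base -247. In Krtap3-2, TATAAA began at base -32, CTTTGA at base 18 and TGANTCA at base -186. TATAAA began at base -40 in Krt71, while Krt84 held it only on the other strand, from base -206, and none of the 3 motifs was spelled in the window of Krt36.

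The smallest library held 15734559 counts on genes and the largest 23271784. Levels are given as CPM, the share of a library's total after TMM scaling (trimmed mean of M-values), on which 3 counts in a library came to 0.123 to 0.184 CPM. This served as the floor, and floors and intervals on counts cover counting error only. On the first principal component of all genes tested (68.3% of the variance), LL37 replicate 3 lay at 64.4, apart from LL37 replicates 1 and 2 at 133 and 129, and control libraries lay between -62.6 and -50.2.

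Follicle genes of this kind were scarce in all 12 libraries. The members together took between 0.00623 and 0.0161% of the counts in a library, and Krt75 alone made up 77.2 to 88.3% of that, which left between 203 and 638 counts per library for the other members. Of the 75 members, 31 had no count in any library, 54 never exceeded 3 counts, and 13 reached 10 counts in at least 1 library. By class, 18 of 21 high sulfur, 18 of 21 ultra high sulfur and 13 of 15 high glycine-tyrosine genes never exceeded 3 counts, and most keratin-associated proteins were thus at or below the floor in every library. Reads in sequence shared between genes can be lost in counting, so a count at the floor does not show that a gene was silent. A filter on low counts (filterByExpr by group) left 11 members among the 17993 genes tested, namely Krt28, Krt31, Krt32, Krt36, Krt71, Krt75, Krt84, Krt86, Krtap3-2, Krtap3-3 and Krtap17-1. Several of them passed through the group in which they were highest, so their counts of calls describe these genes and not the whole family.

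**Figure D1:**
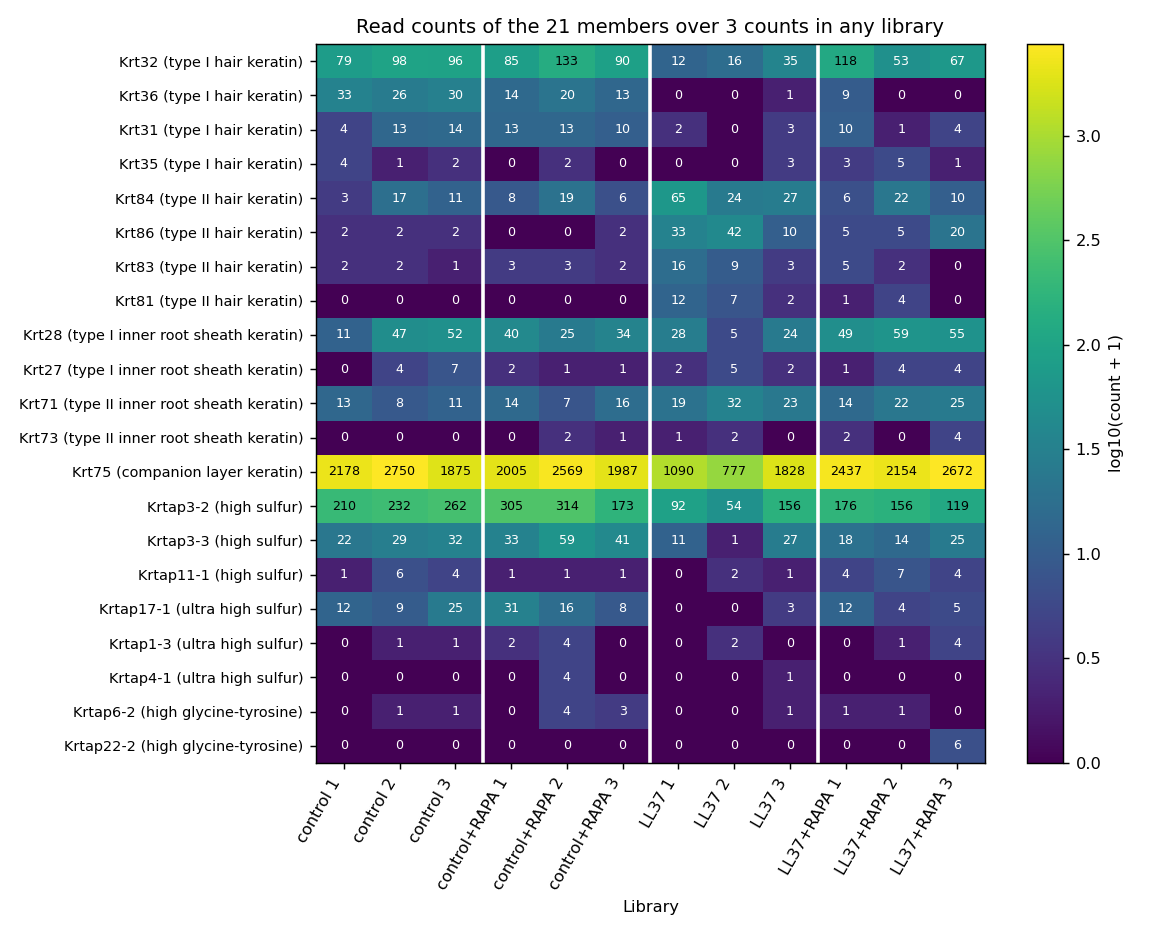
Read counts of the 21 members that exceeded 3 counts in any of the 12 libraries (columns, by group), with rows by class and color on a log10(count + 1) scale. Krt75 holds between 777 and 2750 counts per library, Krt36 is at 0 or 1 count in LL37 skin, and Krt81 is at 0 in all control and control+RAPA libraries.

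Compared per kilobase of exon, Krt75 had the highest mean level over all libraries (31.2 CPM per kb), followed by Krtap3-2 (9.28), Krt32 (2.17), Krtap3-3 (1.80) and Krt28 (1.09). All other members were below 1 CPM per kb, the next being Krtap17-1 (0.707). Among the high glycine-tyrosine genes even the highest, Krtap6-2, reached 0.0646 CPM per kb with 12 counts over all libraries. Krtap22-2 had 6 counts, all in LL37+RAPA replicate 3, and Krtap19-9b had 3 counts in all. In the other classes, Krtap11-1 (high sulfur) had 4, 7 and 4 counts in LL37+RAPA libraries and at most 6 elsewhere, while Krtap1-3 and Krtap4-1 (ultra high sulfur) had at most 4 counts in a library.

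The first comparison, LL37 vs control, asks what LL37 injection changes in skin. Among the hair keratins, the tested type I genes fell and the tested type II genes rose. Krt36, Krt31 and Krt32 (type I) were lower in LL37 skin, whereas Krt86 and Krt84 (type II) were higher. The keratin-associated proteins Krtap3-2 and Krtap17-1 were lower, and the inner root sheath keratin Krt71 was higher. By edgeR's quasi-likelihood test with Benjamini-Hochberg adjustment (limits of 0.05 for the adjusted p and 1 for the absolute log2 fold change), 3 of the 11 tested members were called higher and 5 lower. Of all genes tested in this comparison, 19.5% were called, 8.73% higher and 10.8% lower. The 3 control and 3 LL37 libraries did not overlap in 9 of the 11 tested members, while 49.7% of all genes tested showed no overlap.

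Krt32, a type I keratin of the hair cuticle, was the most abundant hair keratin. Its level was 4.26, 5.02 and 5.06 CPM in the control libraries and 0.653, 0.980 and 1.65 CPM in the LL37 libraries. The highest LL37 library was thus far below the lowest control library, and the log2 fold change was -2.10 ± 0.39 (SE, adjusted p = 0.00121). It was called in each of the 23 alternative settings, between -2.52 and -1.84.

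Krt36, another type I hair keratin, was almost absent from LL37 skin. It had 33, 26 and 30 counts in control, 0, 0 and 1 in LL37, 9, 0 and 0 in LL37+RAPA, and 14, 20 and 13 in control+RAPA libraries. The summed control counts were 87.3 times those in LL37 at equal depth (95% interval 15.3 to 3485), and the adjusted p was 0.00122. In control+RAPA skin, without any LL37, all 3 libraries were also below the control libraries (0.748 to 0.988 against 1.33 to 1.78 CPM), with a log2 fold change of -0.90 ± 0.64 that did not pass the test (adjusted p = 0.738).

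Krt31, a type I keratin of the hair cortex, had 4, 13 and 14 counts in control and 2, 0 and 3 in LL37 libraries. At equal depth the control counts were 6.08 times higher (95% interval 2.34 to 20.0), with an adjusted p of 0.0301. About 14.0% of its 100-base windows are shared with Krt33a, Krt33b or Krt34, so its reads are not fully its own. Krt34 and Krt35, the remaining type I hair keratins of the list, never exceeded 5 counts.

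Krt86, a type II hair keratin, had 2 counts in each control library, 33, 42 and 10 in LL37, 5, 5 and 20 in LL37+RAPA and 0, 0 and 2 in control+RAPA libraries. LL37 skin held 14.4 times the control counts at equal depth (95% interval 6.37 to 40.5, adjusted p = 0.00414), and the groups did not overlap. Krt86 passed the filter on low counts only through LL37 replicates 1 and 2 and LL37+RAPA replicate 3, where it was highest. The call of Krt86 therefore adds no support for a rise beyond these counts. Krt81 and Krt83 lie beside it in the cluster and did not pass the filter on low counts. Krt81 was at 0 in all control and control+RAPA libraries and had 12, 7 and 2 counts in LL37 libraries. The LL37 mean is at least 2.48-fold higher when 3 counts per library stand for control, but LL37 replicate 3 itself lay under 3 counts. Krt83 had 2, 2 and 1 counts in control and 16, 9 and 3 in LL37, a ratio of 5.71 (95% interval 2.18 to 18.9). In settings that let them through, Krt81 was called higher in LL37 vs control in 1 of 1 (at least 1 count in total, adjusted p = 0.0162 by edgeR) and Krt83 in 7 of 11, at log2 fold changes of 2.45 to 2.97, with adjusted p between 0.00668 and 0.105 over the 11 settings. The 7 were the fits without LL37 replicate 3 or without a single LL37+RAPA or control+RAPA library. With a library left out, Krt83 passed the filter only through LL37 replicates 1 and 2, where it was highest. Its calls therefore add no support for a rise. Krt86, Krt81 and Krt83 share sequence with each other and with Krt87, in 24.6% of the 100-base windows of Krt86, 29.0% of Krt81 and 5.43% of Krt83, so how the counts divide among them is uncertain.

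Krt84, a type II hair keratin also known from the tongue, shares no such window with another gene. It stood at 0.162, 0.872 and 0.579 CPM in control and at 3.54, 1.47 and 1.27 CPM in LL37 libraries. The groups did not overlap, and the log2 fold change was 1.94 ± 0.62 (adjusted p = 0.0253). The fifth type II hair keratin among the members, Krt82, never exceeded 3 counts.

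**Figure D2:**
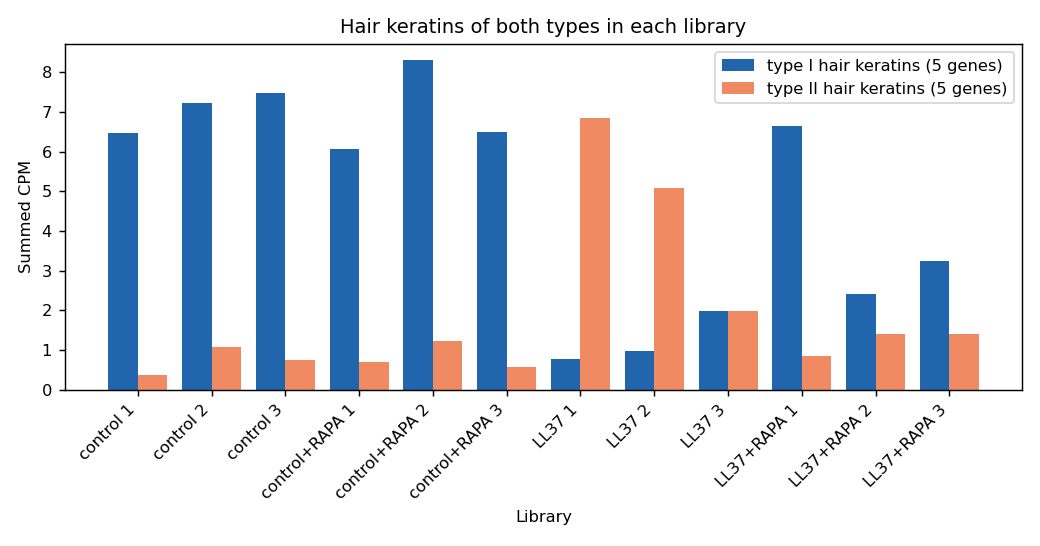
Summed CPM of the 5 type I (blue) and 5 type II (orange) hair keratins among the members in each library. Type I exceeds type II in all control, control+RAPA and LL37+RAPA libraries, type II exceeds type I in LL37 replicates 1 and 2, and in LL37 replicate 3 the sums are equal.

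Summed over the 5 members of each type, tested or not, the balance between types differed by group. Krt33a, Krt33b and Krt87 are not members and are not in these sums. Type I hair keratins amounted to 7.06 ± 0.53 CPM (SD, n = 3) in control, 6.96 ± 1.18 in control+RAPA, 1.24 ± 0.65 in LL37 and 4.10 ± 2.24 in LL37+RAPA libraries. Type II hair keratins amounted to 0.731 ± 0.350, 0.838 ± 0.349, 4.64 ± 2.47 and 1.21 ± 0.31 CPM in the same order. There were 0.0583 to 0.149 type II counts for each type I count in control, 0.0885 to 0.149 in control+RAPA and 0.129 to 0.576 in LL37+RAPA libraries. The LL37 libraries stood at 9, 5.19 and 1, all above the other groups, with LL37 replicate 3 nearest to them.

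Krtap3-2, a high sulfur protein gene, was the second most abundant member. It was at 11.3, 11.9 and 13.8 CPM in control and 5.01, 3.31 and 7.35 CPM in LL37 libraries, a log2 fold change of -1.23 ± 0.28 (adjusted p = 0.00464) without overlap. Krtap3-3 has the same coding sequence and shares 36.7% of its 100-base windows with Krtap3-2. Its counts of 22, 29 and 32 in control and 11, 1 and 27 in LL37 overlapped, and its log2 fold change of -1.11 ± 0.57 did not pass the test (adjusted p = 0.142).

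Krtap17-1 was the one ultra high sulfur gene with enough counts to test. It had 12, 9 and 25 counts in control, 0, 0 and 3 in LL37, 12, 4 and 5 in LL37+RAPA and 31, 16 and 8 in control+RAPA libraries. The control counts were 15.0 times those in LL37 (95% interval 4.83 to 75.6, adjusted p = 0.00816). All 21 ultra high sulfur genes together had 10 to 27 counts in control and 0 to 5 in LL37 libraries, most of them from this gene.

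The inner root sheath keratins did not share a direction. Krt71, a type II keratin of that sheath, was at 0.701, 0.410 and 0.579 CPM in control and 1.03, 1.96 and 1.08 CPM in LL37 libraries, a log2 fold change of 1.25 ± 0.42 (adjusted p = 0.0314). Krt28, a type I keratin of the same sheath, overlapped between groups, with 0.593, 2.41 and 2.74 CPM in control and 1.52, 0.306 and 1.13 CPM in LL37 libraries (log2 fold change -0.93 ± 0.55, adjusted p = 0.195). Krt27 and Krt73, the next in level, had at most 7 and 4 counts in a library.

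Krt75 was lower in LL37 skin by less than the limit on the fold change. It was at 117, 141 and 98.8 CPM in control and 59.3, 47.6 and 86.1 CPM in LL37 libraries, without overlap, and the log2 fold change was -0.89 ± 0.20 (adjusted p = 0.00479). With LL37 replicate 3 left out it was -1.13, and with control replicate 3 left out -1.01, and both pass the limit. An unnamed gene, Gm44460, overlaps Krt75 on the other strand, as Gm11571 does Krt32, and the sources used here do not state whether counting used the strand.

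**Figure D3:**
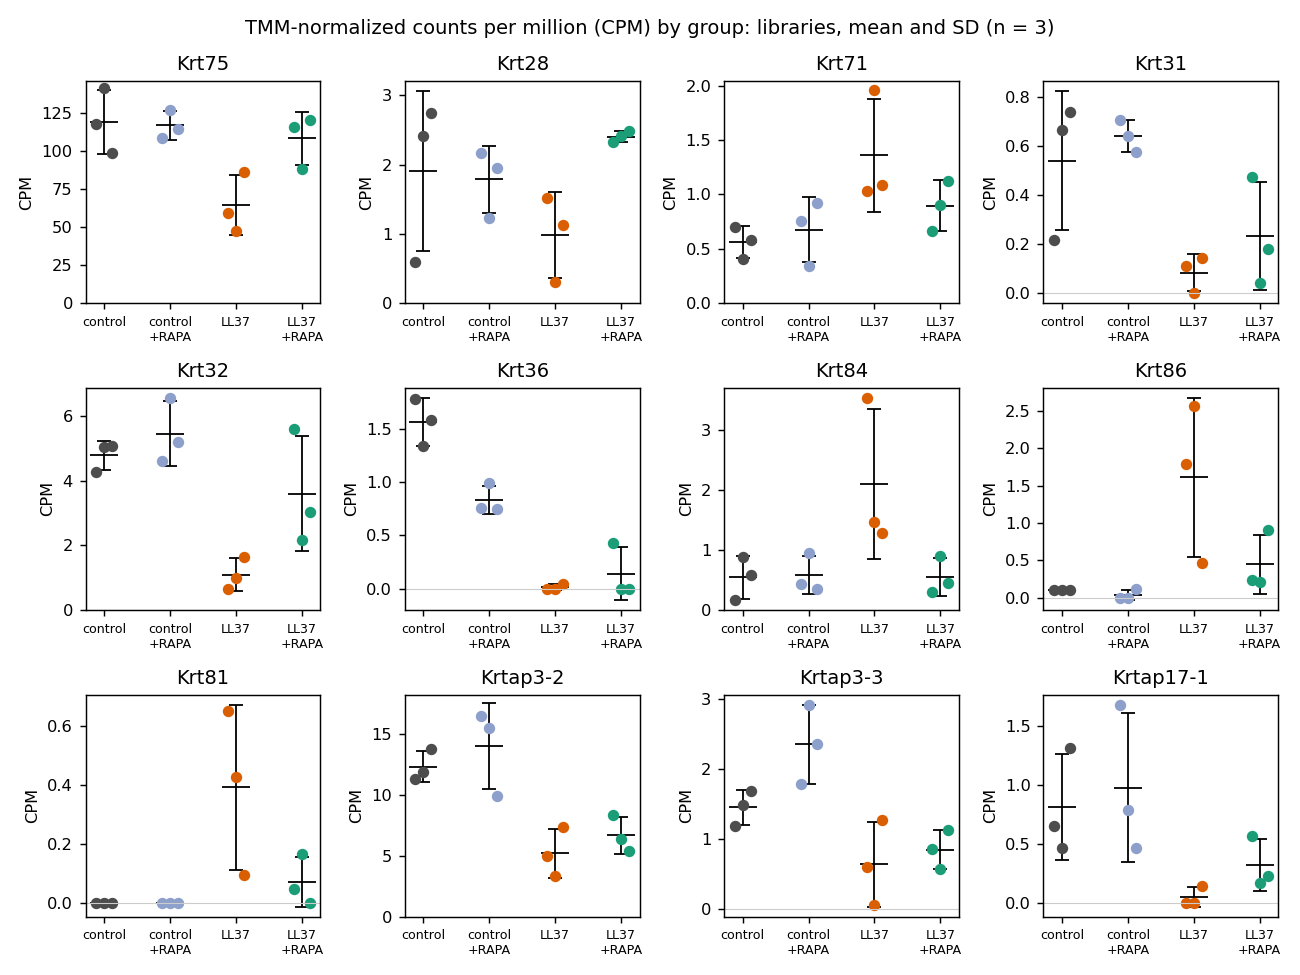
CPM of the 11 tested members and Krt81 in each library (points), with the mean and SD of each group (n = 3, linear axes). Krt32, Krt36 and Krt75 are lower in LL37 (orange) than in every control library (dark grey), and Krt84, Krt86 and Krt81 are higher. Krt81 in LL37 replicate 3 lies under the floor of 3 counts.

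Several of these calls depended on single libraries. Without LL37 replicate 3, 12 members passed the filter in place of 11, and 11 of these were called in LL37 vs control, Krt83 among them and Krt28 not. Without LL37 replicate 2, 5 of 11 were called. The call of Krt31 was lost without control replicate 2 (log2 fold change -2.37), control replicate 3 (-2.25), LL37 replicate 1 (-2.69) or LL37 replicate 2 (-2.02). Krt71 was lost with genes of at least 1 count in total (1.25, adjusted p = 0.0503), and without control replicate 2 (1.05), control replicate 3 (1.26) or LL37 replicate 2 (0.94), and Krt84 without control replicate 1 (1.52), control replicate 3 (1.99) or LL37 replicate 1 (1.33). Krtap3-2 fell under the limit without LL37 replicate 2 (-0.96). Krtap3-3 passed without LL37 replicate 3 (-2.04) and Krt28 without control replicate 1 (-1.36). Krt32, Krt36, Krt86 and Krtap17-1 were called without each library in turn. In all of these fits Krt86 passed the filter only through LL37 and LL37+RAPA libraries, which held its highest counts. A fit of the compared groups alone tested 8 members and called 4, namely Krt32, Krt36, Krt71 and Krtap3-2. Krt84 was left at an adjusted p of 0.0529. Krt31, Krt86 and Krtap17-1 did not pass the filter in that fit, so their calls rest on a test with the other groups included.

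The second comparison, LL37 vs LL37+RAPA, asks what rapamycin changes in LL37 skin. It shares the LL37 libraries with the first, so that both move together with those 3 libraries. Krt84 was higher and Krt32 lower in LL37 than in LL37+RAPA skin, 2 of the 11 tested members, while 10.1% of all genes tested were called, 4.33% higher and 5.8% lower. The groups did not overlap in 5 of the 11 members, against 38.3% of all genes tested. Krt32 stood at 5.60, 2.17 and 3.02 CPM in LL37+RAPA libraries, all above the LL37 libraries, for a log2 fold change of -1.69 ± 0.39 (adjusted p = 0.0105). Krt84 was at 0.285, 0.901 and 0.451 CPM in LL37+RAPA, all below the LL37 libraries, for 1.91 ± 0.61 (adjusted p = 0.0399).

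Krt75 was at 116, 88.2 and 120 CPM in LL37+RAPA libraries, above all LL37 libraries, with a log2 fold change of -0.75 ± 0.20 that was under the limit (adjusted p = 0.0228). Krtap3-2, in contrast, was at 8.35, 6.39 and 5.36 CPM in LL37+RAPA, which overlapped LL37 (log2 fold change -0.35 ± 0.28, adjusted p = 0.394). Krt86 (1.82 ± 0.69, adjusted p = 0.0743), Krtap17-1 (-2.44 ± 1.07, adjusted p = 0.116) and Krt28 (-1.26 ± 0.54, adjusted p = 0.110) did not pass the test. For Krt36, a single LL37+RAPA library held all 9 counts of that group, so the difference could not be resolved (adjusted p = 0.243).

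In LL37 vs LL37+RAPA, 6 members were called without LL37 replicate 3, with Krt75 (-1.02), Krt83 (2.71), Krt86 (2.27) and Krtap17-1 (adjusted p = 0.0392, with LL37 at 0 in both libraries left) among them, and Krt86 was also called without LL37+RAPA replicate 3 (2.82) and Krt83 without LL37+RAPA replicate 1 (3.40). Krt83 passed the filter in these fits only through LL37 replicates 1 and 2, and so did Krt86 without LL37+RAPA replicate 3. That library held the most Krt86 counts of its group. These calls of Krt83 and that call of Krt86 therefore add no support for a difference. Krt84 was lost without control replicate 3 (1.91), LL37 replicate 1 (1.3), LL37 replicate 2 (2.11), LL37+RAPA replicate 1 (1.61), LL37+RAPA replicate 3 (1.78) or control+RAPA replicate 1 (1.91). A fit of the 2 compared groups alone called 0 members (Krt32 at an adjusted p of 0.0585 and Krt84 at 0.0643).

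The third comparison, LL37+RAPA vs control, called 1 of the 11 tested members, against 6.49% of all genes tested (2.15% higher and 4.35% lower), and 4 members did not overlap between groups, against 36.4% of all genes. The called member was Krt36, lower in LL37+RAPA (-3.47 ± 0.79, adjusted p = 0.0129) but not without LL37+RAPA replicate 2 (-2.86, adjusted p = 0.0505). Krtap3-2 was below control in each LL37+RAPA library, at -0.88 ± 0.28, and did not pass (adjusted p = 0.0558). Krt32 (-0.42 ± 0.35, adjusted p = 0.502) and Krt84 (0.03 ± 0.66, adjusted p = 0.985) overlapped control. Krt75, at -0.14 ± 0.20 (adjusted p = 0.726), overlapped it too. Krt86 was above control in all 3 LL37+RAPA libraries, with 4.21 times the counts (95% interval 1.73 to 12.4, adjusted p = 0.198).

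**Figure D4:**
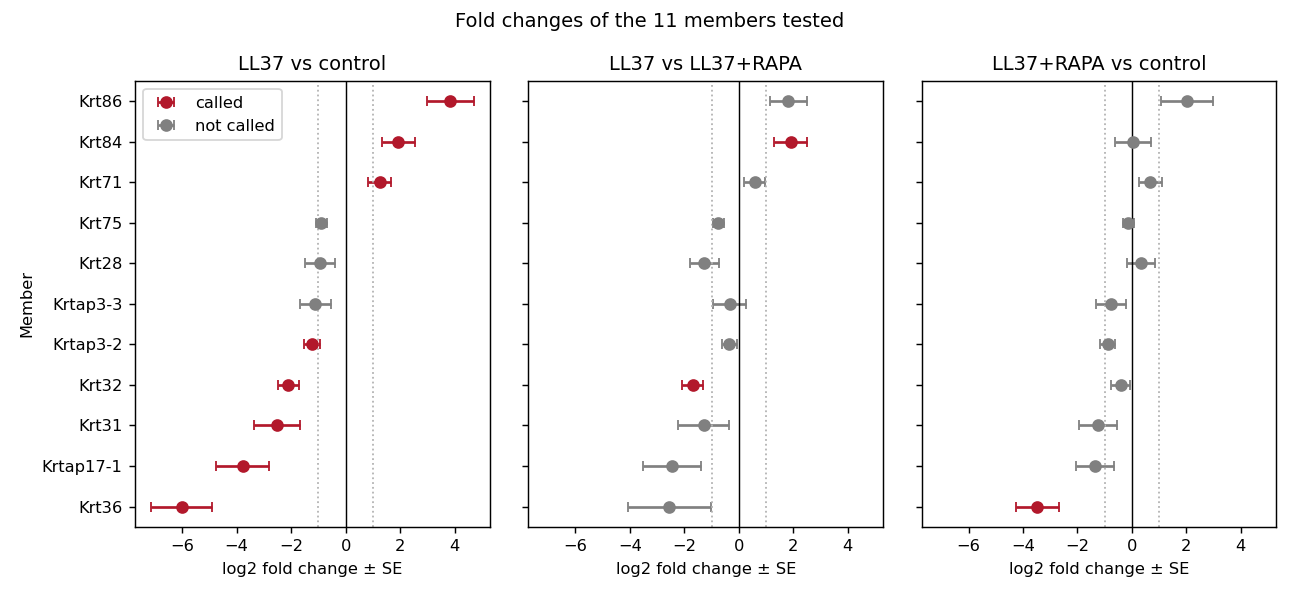
Log2 fold changes with standard errors of the 11 tested members in 3 comparisons, red where called (adjusted p under 0.05 and beyond the dotted lines at 1 and -1). LL37 vs control has 8 called members, LL37 vs LL37+RAPA 2 and LL37+RAPA vs control 1, and the comparisons share libraries.

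In control+RAPA vs control, rapamycin without LL37, edgeR called 0 members, with 0 at an unadjusted p under 0.05 and 0 by DESeq2, and 0% of all genes tested were called. The groups did not overlap in 2 members, against 15.7% of all genes tested. The members' log2 fold changes lay between -1.40 (Krt86, at 2 counts or fewer in every library of both groups) and 0.70 (Krtap3-3). The interaction, which asks whether rapamycin acts differently with and without LL37, also called 0 of the 11 members by edgeR, against 2.38% of all genes tested. At an unadjusted p under 0.05 there were 3, namely Krt32 (1.5 ± 0.52, adjusted p = 0.120), Krt75 (0.78 ± 0.29, adjusted p = 0.143) and Krt84 (-2.01 ± 0.91, adjusted p = 0.218). DESeq2 called 1 of them, Krt32 (1.51, adjusted p = 0.0471), and edgeR called Krt32 (1.94) and Krt75 (1.05) without LL37 replicate 3.

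Other genes of the follicle were read from lists to place these results. Of 12 hair shaft and matrix regulators, all tested, 0 were called higher and 3 lower in LL37 vs control, with a median log2 fold change of -0.19 beside -0.0049 over all genes tested. Ovol1, an epidermal transcription factor (43.3 to 103 CPM in LL37, 47.1 to 65.3 in control), and Wnt10a, a Wnt ligand (61.5 to 66.5 and 47.9 to 66.2 CPM) overlapped. Bmp4, a signal from the dermal papilla and matrix, was lower (7.40, 10.2 and 14.8 CPM in LL37 against 32.7, 31.4 and 25.1, log2 fold change -1.45, adjusted p = 0.000598). Shh, which is made in the matrix of growing follicles, stayed below 1 CPM in all 12 libraries. It was at 0.162 to 0.685 CPM in control, 0.435 to 0.895 in LL37 and 0.270 to 0.522 in LL37+RAPA libraries. In control+RAPA libraries it was under the floor, at 0.0494 to 0.115 CPM. The list's log2 fold changes lay between -2.09 and 0.91. Its summed level, which came mostly from Ovol1 and Wnt10a, was 189 to 224 CPM in control and 156 to 245 CPM in LL37 libraries.

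Of 14 further hair shaft and inner root sheath genes, 13 were tested, and 3 were higher and 2 lower in LL37 vs control. Gata3, a regulator of the inner root sheath, and Cux1 overlapped between groups (adjusted p = 0.814 and 0.364). Mt4, a metallothionein of stratified epithelia, fell from 61.6, 78.4 and 62.4 CPM in control to 2.01, 0.490 and 29.8 CPM in LL37 libraries (log2 fold change -2.62, adjusted p = 0.0320). Tchh, which encodes trichohyalin of the inner root sheath and was singled out after its values were seen, rose from 5.01, 6.10 and 5.37 to 15.6, 12.3 and 11.9 CPM (log2 fold change 1.27, adjusted p = 0.000170).

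Of 10 bulge and telogen follicle genes, 0 were called higher and 5 lower in LL37 vs control, and 0 higher and 2 lower in LL37 vs LL37+RAPA. Sox9, the one gene of the list with a higher level in LL37 than in control, did not pass (log2 fold change 0.32, adjusted p = 0.211). Their summed level was 2658 to 3434 CPM in control, 1053 to 1819 in LL37, 2199 to 3102 in LL37+RAPA and 2532 to 2926 in control+RAPA libraries. Krt15 made up 70.8 to 78.1% of this sum in LL37 and 76.3 to 81.7% in control libraries, and the other 9 genes summed to 308 to 456 CPM in LL37 and 579 to 665 CPM in control. Krt15, a keratin of bulge stem cells, fell by 1.06 on the log2 scale (adjusted p = 0.00333) and Cd34, a surface marker of the bulge and of other skin cells, fell by 1.08 (adjusted p = 0.000270). Among 9 tested dermal papilla genes 2 were higher and 3 lower. Of 5 tested pigment cell genes 0 were higher and 2 lower, with a summed level of 41.2 to 49.4 CPM in control and 17.2 to 28.8 in LL37, and its highest gene in LL37 skin, Dct, reached 15.1 CPM there.

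**Figure D5:**
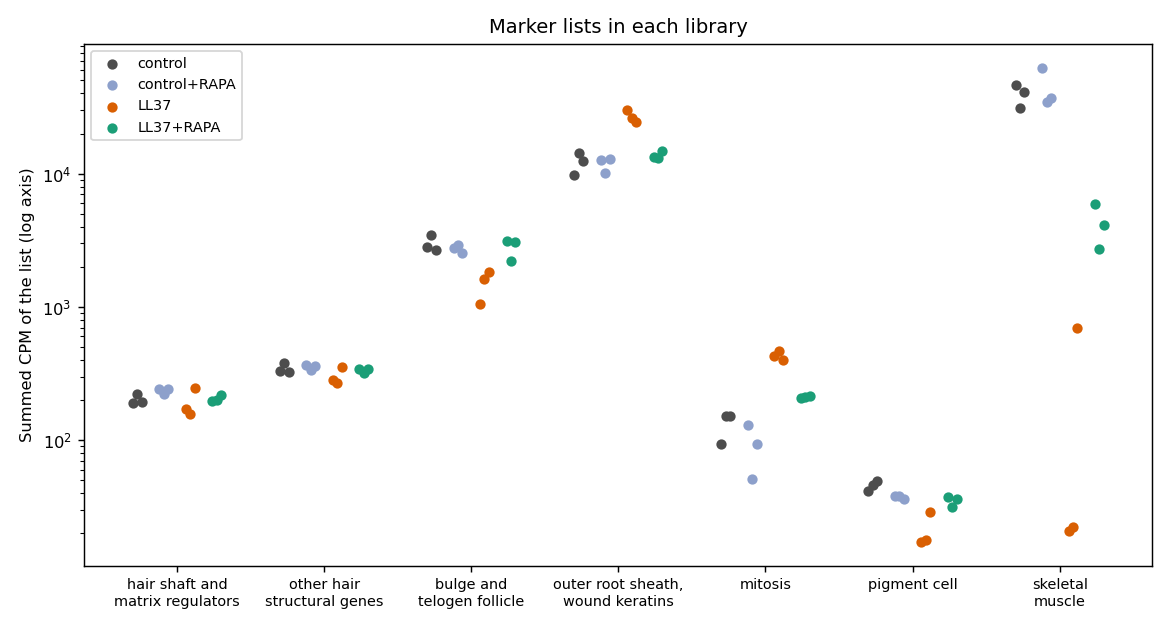
Summed CPM of 7 marker lists in each library on a log axis, colored by group. The 2 hair lists at the left overlap between groups, and their sums come mostly from Ovol1 and Wnt10a and from Gata3 and Cux1. Bulge, pigment and muscle genes are lower in LL37 (orange) than in control, and outer root sheath, wound and mitosis genes are higher.

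Markers outside the shaft moved with LL37 too. All 6 outer root sheath and wound keratins had higher levels, 5 of them called, and their summed level was 9695 to 14313 CPM in control, 24188 to 30099 in LL37 and 13178 to 14740 in LL37+RAPA libraries. Most of this sum was Krt5 (4886 to 6817 CPM in control, 7839 to 8328 in LL37) and Krt14 (3466 to 5467 and 9263 to 10704 CPM). All 10 mitosis genes were called higher in LL37 vs control, at a summed 402 to 468 CPM against 93.8 to 153. All 11 tested skeletal muscle genes were called lower, from a summed 31243 to 46066 CPM in control to 20.8, 22.3 and 692 CPM in LL37 libraries, where LL37 replicate 3 held the most. The 11 muscle genes were also called lower in LL37 vs LL37+RAPA, and 7 of them in LL37+RAPA vs control, as LL37+RAPA libraries held 2704 to 5925 CPM. Of 10 adipocyte genes 9 were lower in LL37 vs control, 10 in LL37 vs LL37+RAPA and 0 in LL37+RAPA vs control, with sums of 1712 to 3045 CPM in control, 512 to 1032 in LL37 and 2983 to 3173 in LL37+RAPA libraries. In LL37 vs control, of 10 sebaceous gland genes 1 was lower, and of 8 fibroblast genes 1 was lower. Of 8 tested neutrophil genes 7 were higher and of 10 macrophage genes 4 were higher, while none of 11 differentiated epidermis genes was called in either direction. With the muscle list left out of the normalization, an alternative added after the data had been seen, the members called numbered 8, 2 and 1 in the 3 comparisons that involve LL37, as in the main analysis.

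The hair cycle stage of each mouse is not stated in the sources used here. The part of hair cycle, tissue composition or the depth of the sampled skin in the members' differences was not tested.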

How the data were processed

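RNA was extracted from skin of 12 samples and sequenced (Illumina TruSeq RNA libraries). The authors deposited raw read counts per Ensembl gene, not normalized and not pooled. The study's methods name HTSeq for counting, while the submitters' processing notes list HISAT2 2.0.5, StringTie 1.3.3b, featureCounts 1.5.0-p3, DESeq2 1.16.1 and mm10 with no roles. A strand setting is not given in the sources used here, and reads in shared sequence can be lost or split.

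Gene names, coordinates and exon lengths came from GENCODE M21 (52403 of 52636 IDs matched). One edgeR 4.0.16 model in R 4.3.3 covered all 12 libraries (TMM, filterByExpr by group, quasi-likelihood F-test, Benjamini-Hochberg adjustment over 17993 genes). Called genes had an adjusted p under 0.05 and more than 1 log2 unit of change. With depths of 15734559 to 23271784 counts, 3 counts served as floor. Ratios of summed counts have exact 95% binomial intervals for counting error. DESeq2 1.42.0 and the other alternatives are under the closing section. The test was tried on simulated data with genes drawn at random from all tested genes. In LL37 vs control, edgeR recovered 17 of 50 genes changed 2-fold, which is the limit itself, and 39 of 50 changed 4-fold. For the interaction it recovered 13 of 50 and 34 of 50. Recovery at counts as low as those of most tested members was not examined separately, so these rates may not hold for them. Members, lists and tests were chosen with earlier results of these data known. Named were, by rule, the 2 highest keratins of each role and the 3 highest genes of each keratin-associated protein class per kilobase, the 3 called members with the smallest p in each direction, and up to 3 highest genes of each context list. Others named, such as Krt31, Krt81, Krt83 and Shh, were named as counts of 5 or fewer or after their values were seen.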

Additional observations from a re-analysis of the deposited data

How the results depend on the processing

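The members called were recomputed under other normalizations, filters, tests, fits and without single libraries. Of 54 recomputed counts other than those without single libraries, 51 stayed within 1.5 times the main count, though not always with the same members: with genes of at least 1 count in total, LL37 vs control called Krt81 and not Krt71. The exceptions were the interaction under DESeq2 (1 member in place of 0), and LL37 vs control (4 in place of 8) and LL37 vs LL37+RAPA (0 in place of 2) in fits of the compared groups only, which tested 8 members in place of 11. Leaving out 1 library at a time gave 5 to 11 members in LL37 vs control, 1 to 6 in LL37 vs LL37+RAPA, 0 to 1 in LL37+RAPA vs control, 0 to 0 in control+RAPA vs control and 0 to 2 in the interaction. The highest counts came without LL37 replicate 3, the library nearest to the other groups on the first principal component, and the cause was not tested. The share of counts on the members then ranged from 0.0130 to 0.0147% in control, 0.0128 to 0.0141% in control+RAPA, 0.00687 to 0.00916% in LL37 and 0.0127 to 0.0146% in LL37+RAPA.

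Of 815 recomputed fold changes of single members 5 changed sign, none of them of a called value and all without a single library. Their ranges without single libraries were -0.0936 to 0.67 for Krt28 and -0.54 to 0.55 for Krt84 in LL37+RAPA vs control, and -1.30 to 0.16 for Krtap3-3 and -4.49 to 1.92 for Krt36 in LL37 vs LL37+RAPA.

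Deviations of same-numbered libraries from their group means correlated at -0.188 to 0.263, over 0.1 in 4 of 18 pairs. Differently numbered libraries were not compared, so this does not settle whether the numbers pair the samples, and the main fit did not pair them. With the replicate block, 8, 2, 1, 0 and 0 members were called in the 5 comparisons, the same as without it. Counts under about 10 per library limit the precision for most members, and with 3 libraries a group the calls near the limits are uncertain.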
